A study of Homo sapiens with 10 samples.

Results

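The expression of 41 autophagy and lysosome genes was followed in HEK293T cells that had been given no, normal or excess L-cysteine for 24 h. The 41 genes were chosen by name, with earlier results of these data known. Shares of members that differed, given below beside those of other genes, are therefore descriptions and not tests. Of the 41 genes, 29 belong to autophagy (its MiT/TFE transcription factors, cargo receptors, ATG8 proteins and core machinery) and 12 to the lysosome (membrane proteins, hydrolases and subunits of the proton pump). All 41 were found among the 78894 gene IDs of the deposited table and all 41 were among the 29045 genes kept for testing, those that reached a value of 10 in 3 or more libraries. Poly(A)-selected mRNA was sequenced from 2 libraries of cells in cysteine-free medium (0X-Cys), 4 in complete medium (1X-Cys) and 4 in medium with a 10-fold excess of cysteine (10X-Cys). HEK293T is an established human embryonic kidney line that carries a viral large T antigen. No gene was altered. The methods describe a pair of cysteine treatments. For the RNA they refer back to the amino acid starvation treatment, but the section on amino acid starvation and release holds no 10-fold excess. Which treatment these libraries had is therefore not settled. In the one that includes a 10-fold excess, all media had the same base, a DMEM without cysteine and methionine to which methionine, glutamine, pyruvate and non-essential amino acids were added back. In the other, the starvation medium held dialyzed serum and the complete medium was ordinary DMEM, so a difference between these media besides cysteine cannot be told apart from that of cysteine. The labels call the libraries biological replicates, and the culture methods describe parallel wells of 1 line, so the p-values below measure the spread between such wells.

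Autophagy encloses cytoplasm in a double membrane and delivers it to the lysosome. The ULK kinase complex starts the process, a PI3-kinase complex containing Beclin 1 marks the membrane with the lipid PI3P, WIPI proteins read that lipid, and ATG9A and ATG2A supply membrane lipid. Ubiquitin-like conjugation enzymes (ATG3, ATG5, ATG7, ATG12, ATG16L1) then attach ATG8 proteins, the LC3 and GABARAP families, to the membrane, where cargo receptors such as p62 (SQSTM1) dock. In the lysosome, the V-ATPase pumps protons, hydrolases such as cathepsins digest the cargo, and LAMP proteins line the membrane. Amino acids released there, cystine among them, return to the cytosol. TFEB, TFE3 and MITF are transcription factors that are held in the cytosol by nutrient signalling and are known to bind E-box sequences in promoters of lysosomal genes.

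Between 34836014 and 61654861 reads per library fell on genes. Each member had between 148 and 14616 reads in every library, with the fewest for TFEB (148 to 425) and MITF (268 to 716), for which counting error is the largest in proportion to the level. Libraries of 1 group differed by more than sampling noise, with a chi-square per degree of freedom over genes of 3.53 to 14.7. Complete libraries 3 and 4 were the farthest apart (14.7), and excess library 4 stood 8.94 to 13.79 from the other excess libraries, which stood 3.53 to 4.09 from one another. Without excess library 4, 20 autophagy and 8 lysosome members were called between excess and complete medium, and without complete library 3 or 4 there were 22 autophagy members and 9 or 8 lysosome members, beside 21 and 9 with all libraries. The 9 markers of the embryonic kidney line, among them PAX2, SALL1, VIM, KRT8 and KRT18, all had a median normalized count of 10 or more. Of 6 markers of other cell types, PTPRC, PECAM1 and MYH7 had medians of 0, 8.9 and 0.9, while ALB, COL1A1 and GFAP had medians of 10.6, 752.1 and 203.2. Their summed level ranged from 889.9 to 1035.3 in cysteine-free, from 1038.9 to 1237.5 in complete and from 833.3 to 937.1 in excess libraries. Transcripts encoded by the mitochondrial genome took 5.43% ± 0.397 (SD, n = 2) of the reads in cysteine-free medium, 4.71% ± 0.25 (n = 4) in complete medium and 0.129% ± 0.013 (n = 4) in excess medium. This fall moved with every excess result below, and its part in them was not tested.

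A normalized count is the number of reads on a gene divided by the size factor of its library. Summed over the 29 autophagy members, the normalized counts were 62470 ± 400.6 (SD, n = 2) in cysteine-free medium, 62620 ± 1332 (n = 4) in complete medium and 83080 ± 1176 (n = 4) in excess medium. The 12 lysosome members summed to 39580 ± 1246 in cysteine-free, 45410 ± 1707 in complete and 37070 ± 790 in excess medium, so the autophagy sum was highest in excess medium while the lysosome sum was lowest there. These sums were not tested, and the most abundant genes weigh the most in them. Between excess and cysteine-free medium, single lysosome members divided into 4 higher and 5 lower in excess medium. In such bulk values, fewer cells of a kind and less RNA per cell cannot be told apart. Per kilobase of exon in complete medium, the levels ran from 34.3 for TFEB and 46.8 for MITF to 1119 for CTSD, 1361 for GLA and 1391 for GABARAP. The plot of all members by library shows the 10 roles in turn.

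**Figure D1:**
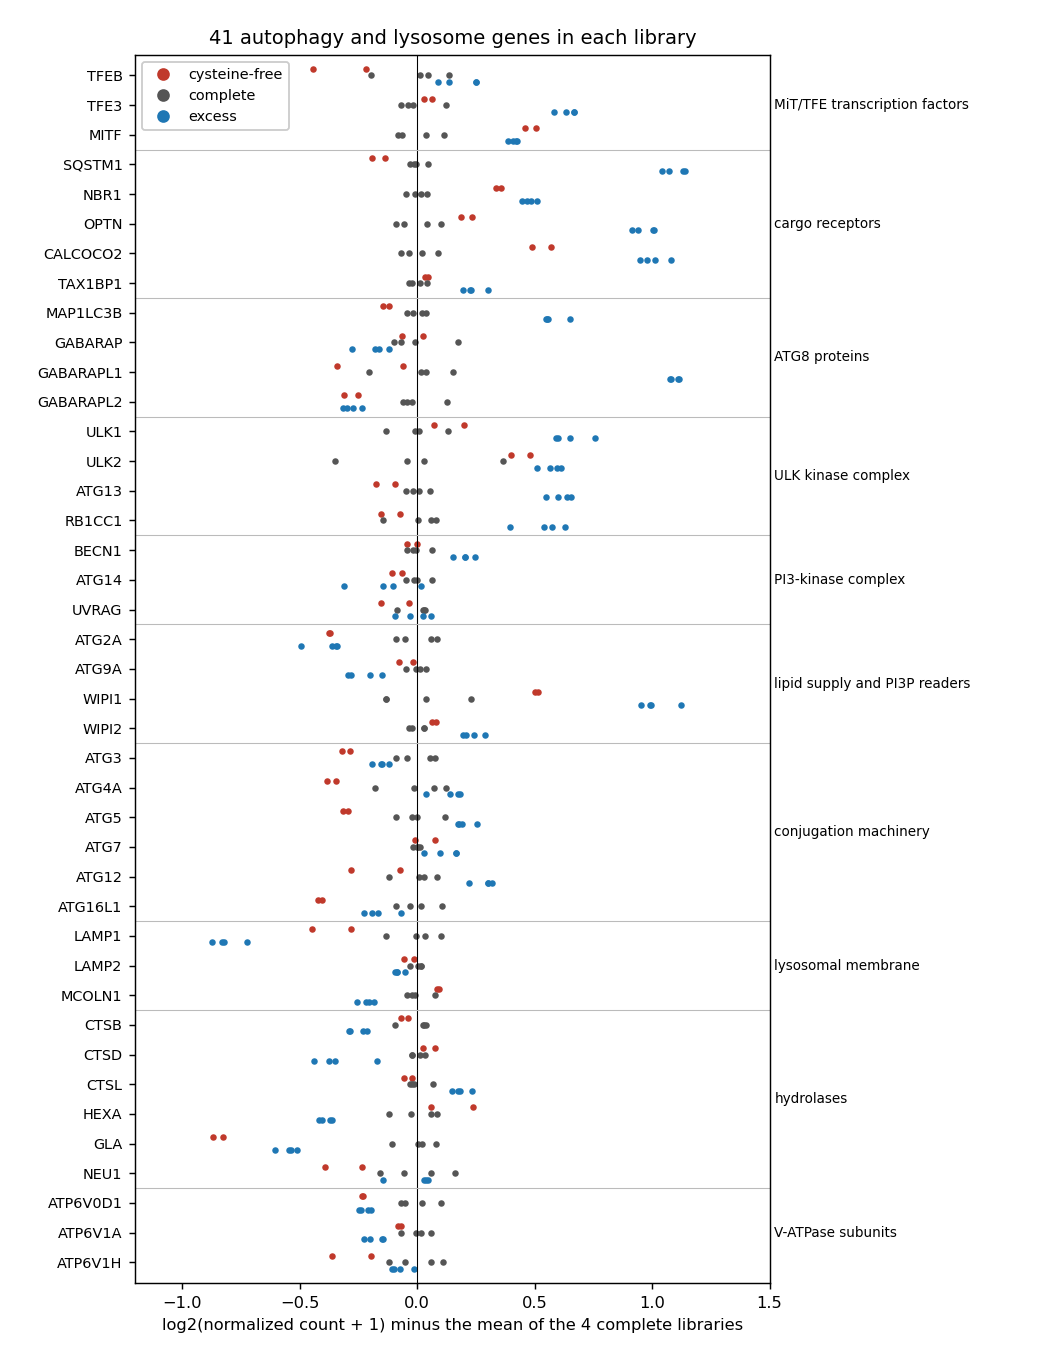
Level of each of the 41 genes in each library, as log2(normalized count + 1) minus the mean of the 4 complete libraries; points are libraries (red cysteine-free, grey complete, blue excess) and the genes are grouped by role. The excess libraries lie to the right of the complete ones for all 5 cargo receptors and all 4 genes of the ULK complex, and to the left for LAMP1, CTSB, CTSD, HEXA and GLA.

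Excess cysteine was compared with complete medium first, because more members differed there. A gene was called when its adjusted p in limma's test of log2(normalized count + 1) was 0.01 or less. In excess medium, 30 of the 41 members were called, 19 higher and 11 lower, against 46.0% of all genes tested (23.1% higher and 22.9% lower). Among protein-coding genes with a mean of 100 or more, a set closer to the members in level, 66.0% were called, 30.0% higher and 36.0% lower. The autophagy members gave 18 higher and 3 lower of 29 (62.1% and 10.3%), with a median log2 fold change of 0.24. The lysosome members gave 1 higher and 8 lower of 12 (8.33% and 66.7%), with a median of -0.22, while the median was 0.01 over all genes tested and -0.04 over those protein-coding genes. SQSTM1, GABARAPL1, CALCOCO2 and WIPI1 were at least 2-fold higher, and no member was 2-fold lower. The smallest p that an exact permutation test can give with 4 against 4 libraries is 0.029, and every one of the 30 called members had that value. When all libraries were scaled to equal totals instead, the median of all genes moved from 0.014 to 0.118, the share of calls that were higher went from 50.26% to 61.8%, and 5 of the 12 lysosome members were called in place of 9. With equal totals over nuclear genes only, the median was 0.052, 54.47% of calls were higher and 8 of the 12 lysosome members were called.

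Fewer members were called in cysteine-free medium, which had 2 libraries. Against complete medium, 11 of 41 were called, 4 higher and 7 lower, where 15.9% of all genes tested were called (7.39% higher and 8.51% lower) and 26.7% of the protein-coding genes with a mean of 100 or more. CALCOCO2, WIPI1, MITF and NBR1 were higher. ATG16L1, ATG2A, ATG5, ATG3 and GABARAPL2 among the autophagy members, and GLA and LAMP1 among the lysosome members, were lower. The median log2 fold change was -0.08 over the autophagy members, -0.06 over the lysosome members and 0.00 over all genes tested. With 2 against 4 libraries the exact permutation test cannot give a p under 0.067. These calls rested on both cysteine-free libraries: without either one, 1 autophagy member (CALCOCO2) and 1 lysosome member (GLA) remained called. Without the filter on low values limma called 0 autophagy members, of which 16 had an unadjusted p under 0.05 and edgeR and DESeq2 with the filter called 8 and 10, and 1 lysosome member.

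The altered media were also compared directly, since both comparisons above share the complete libraries. Excess against cysteine-free medium gave 30 called members, 23 higher and 7 lower, where 48.0% of all genes tested were called (24.4% higher and 23.6% lower) and 67.0% of the protein-coding genes with a mean of 100 or more. Of the autophagy members 19 were higher and 2 lower in excess medium, with a median log2 difference of 0.25. The lysosome members divided more evenly, 4 higher and 5 lower, with a median of -0.07.

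**Figure D2:**
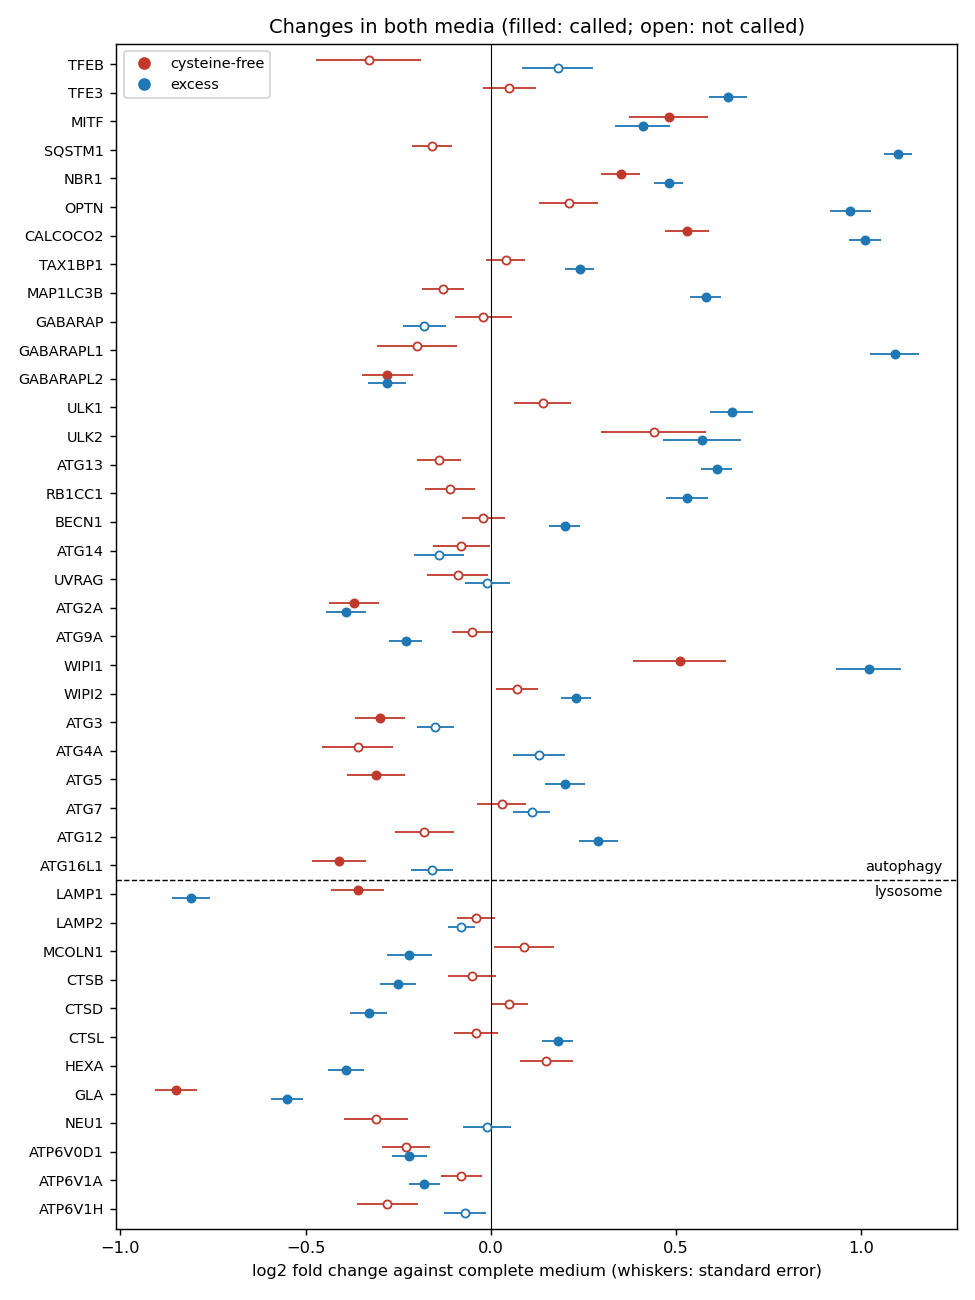
Log2 fold change of each member against complete medium in cysteine-free (red) and excess (blue) medium; whiskers are standard errors, filled points passed the threshold of 0.01 on the adjusted p, and the dashed line divides the 29 autophagy genes from the 12 lysosome genes. SQSTM1, GABARAPL1, WIPI1 and CALCOCO2 lie farthest to the right in excess medium, and LAMP1 in excess and GLA in cysteine-free medium lie farthest to the left.

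The 3 MiT/TFE factors differed from each other. TFE3 had 1656 and 1694 normalized counts in cysteine-free, 1581, 1548, 1602 and 1769 in complete and 2519.6, 2429, 2580.0 and 2579 in excess libraries. Only the excess libraries stood apart, all above the rest, with a log2 fold change of 0.64 ± 0.0513 (SE, adjusted p = 1.42e-08) against complete medium and 0.05 (adjusted p = 0.683) in cysteine-free medium. MITF, the melanocyte master regulator of the family, had 476 and 493 in cysteine-free, 375, 331, 355 and 327 in complete and 459.6, 465, 454 and 465 in excess libraries. It was above complete medium in both altered media, with log2 fold changes of 0.48 ± 0.106 (SE, adjusted p = 0.0041) in cysteine-free and 0.41 ± 0.0748 (SE, adjusted p = 0.000167) in excess medium, and the direct difference between those media did not pass (-0.07, adjusted p = 0.452, 95% interval -0.23 to 0.09). The cysteine-free call of MITF was lost without the filter on low values, without either cysteine-free library or without complete library 2. TFEB, the member with the lowest level, had 169 and 197 in cysteine-free, 252, 237, 200.0 and 232 in complete and 273, 252, 244 and 273 in excess libraries. Its log2 fold changes of -0.33 (adjusted p = 0.104) in cysteine-free and 0.18 (adjusted p = 0.124) in excess medium did not pass the test, while the direct difference between those media did (0.51 ± 0.113 SE, adjusted p = 0.000415). That direct call of TFEB was lost without the filter on low values and without cysteine-free library 1.

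Cargo receptors tether ubiquitin-marked cargo to ATG8 proteins, and all 5 rose in excess medium, with a median log2 fold change of 0.97. Over all genes tested 23.1% were higher, and over protein-coding genes with a mean of 100 or more 30.0%. Of 13 other cargo receptors, 5 were higher and 4 lower, with a median of 0.04. SQSTM1 (ENSG00000161011, chr5:179806398-179838078, + strand) encodes p62, which also binds KEAP1. Its normalized counts were 3903 and 4061 in cysteine-free, 4450.4, 4368, 4609 and 4424 in complete and 9383, 9177, 9825 and 9765 in excess libraries. The excess mean was 2.14 times the complete mean, and no library of the groups overlapped, with a log2 fold change of 1.10 ± 0.0382 (SE, adjusted p = 4.69e-13). The cysteine-free libraries lay just below the complete ones, with a log2 fold change of -0.16 (adjusted p = 0.036) that did not pass. In the annotation, 22.39% of the exon bases of SQSTM1 lie in exons of MGAT4B and MRNIP on the other strand.

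CALCOCO2 (ENSG00000136436, chr17:48831018-48866522, + strand), also called NDP52, recognises damaged membranes and bacteria and shares no exon base with another gene. It had 5302 and 5612 normalized counts in cysteine-free, 4011, 3828, 3597 and 3687 in complete and 7285, 7992, 7451 and 7622 in excess libraries, so the 3 media did not overlap. The log2 fold changes were 0.53 ± 0.0599 (SE, adjusted p = 3.57e-05) in cysteine-free and 1.01 ± 0.0443 (SE, adjusted p = 8.42e-12) in excess medium, and the direct log2 difference of excess from cysteine-free medium was 0.48 ± 0.0425 (SE, adjusted p = 6.76e-10). OPTN (optineurin), a receptor in the clearance of mitochondria, had 1187 and 1151 in cysteine-free, 1084, 950.0, 972 and 1039 in complete and 1935, 1906, 2027 and 2031 in excess libraries. It rose in excess medium, with a log2 fold change of 0.97 ± 0.0553 (SE, adjusted p = 2.13e-10), and both cysteine-free libraries lay just above the complete ones, with a log2 fold change of 0.21 (adjusted p = 0.0642) that did not pass. NBR1, which acts beside p62, had 5460.0 and 5374 in cysteine-free, 4394, 4119.8, 4309 and 4234 in complete and 5811, 5966, 6072 and 5891 in excess libraries. Both altered media were above complete medium for NBR1, with log2 fold changes of 0.35 ± 0.0532 (SE, adjusted p = 0.000376) in cysteine-free and 0.48 ± 0.0383 (SE, adjusted p = 1.39e-08) in excess medium. TAX1BP1 rose least of the receptors, from a mean of 4339 ± 105.7 (SD, n = 4) in complete to 5115 ± 158.8 (n = 4) in excess medium (0.24 ± 0.0397 SE, adjusted p = 7.17e-05), and its mean in cysteine-free medium was 4457 ± 26.5 (n = 2).

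The 4 ATG8 genes went different ways in excess medium. GABARAPL1 (ENSG00000139112, chr12:10212458-10223128, + strand) had 823 and 677 normalized counts in cysteine-free, 869, 882, 744 and 955 in complete and 1858, 1855, 1812 and 1818 in excess libraries. The excess libraries lay far above all others and close to one another, with a log2 fold change of 1.09 ± 0.0664 (SE, adjusted p = 4.30e-10). Its cysteine-free libraries overlapped the complete ones (-0.20, adjusted p = 0.189). MAP1LC3B, which encodes LC3B, had 2818 and 2770.0 in cysteine-free, 3145, 3103, 2971 and 3023 in complete and 4502, 4482, 4476 and 4798 in excess libraries. It rose in excess medium, with a log2 fold change of 0.58 ± 0.0417 (SE, adjusted p = 3.90e-09), and the direct log2 difference from cysteine-free medium was 0.71 ± 0.044 (SE, adjusted p = 8.70e-13). GABARAPL2 fell in both media, from a mean of 2273 ± 137.6 (n = 4) to 1868 ± 57.7 (n = 2) in cysteine-free (-0.28 ± 0.0691 SE, adjusted p = 0.00815) and 1868 ± 45.1 (n = 4) in excess medium (-0.28 ± 0.0507 SE, adjusted p = 0.000149). Its cysteine-free call was lost without the filter on low values, under equal totals over nuclear genes and without complete library 1 or 2. GABARAP had means of 2713 ± 237.7 in complete, 2667 ± 116.7 in cysteine-free and 2383 ± 109.1 in excess medium, and its log2 fold change in excess medium (-0.18, adjusted p = 0.0128) did not pass. MAP1LC3B and GABARAPL1 have near-identical copies elsewhere in the genome (MAP1LC3B2 and GABARAPL3), and 48.23% of the exon bases of GABARAP are shared with other annotated genes, so reads may have been divided or lost.

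**Figure D3:**
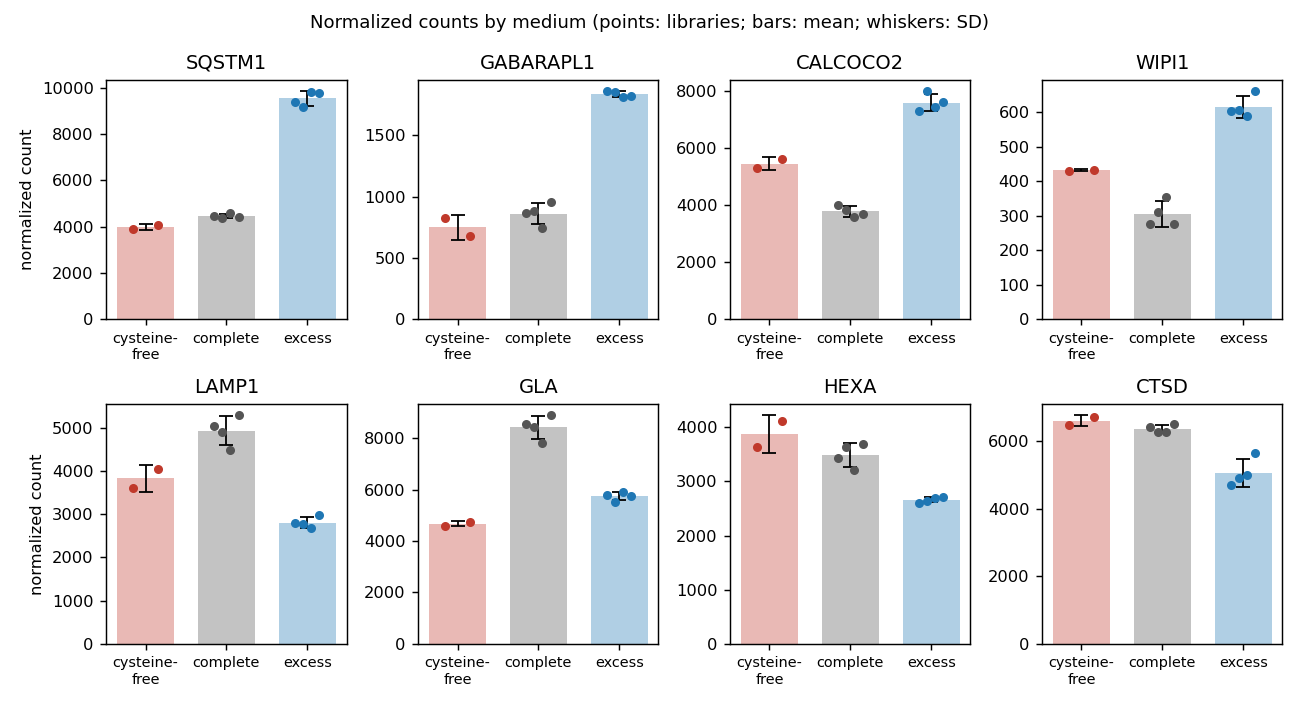
Normalized counts of SQSTM1, GABARAPL1, CALCOCO2, WIPI1, LAMP1, GLA, HEXA and CTSD by medium; points are libraries, bars are means and whiskers are SDs (n = 2 cysteine-free, 4 complete and 4 excess), and each bar axis starts at 0. The upper row holds autophagy genes whose excess libraries lie above all complete ones, and the lower row lysosome genes whose excess libraries lie below all complete ones.

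The 4 genes of the ULK complex, which starts the autophagosome, all rose in excess medium, with log2 fold changes between 0.53 and 0.65. Beside them, 23.1% of all genes tested and 30.0% of protein-coding genes with a mean of 100 or more were higher. ATG13, the adaptor of the complex, had 2884 and 3045 normalized counts in cysteine-free, 3377, 3218, 3151 and 3274 in complete and 4758, 5069.5, 4937 and 5129 in excess libraries. The cysteine-free libraries lay below and the excess libraries above the complete ones, with log2 differences of 0.61 ± 0.0416 (SE, adjusted p = 1.88e-09) between excess and complete and 0.75 ± 0.0444 (SE, adjusted p = 3.67e-13) between excess and cysteine-free medium. ULK1, its kinase, rose from a mean of 1996 ± 150.1 (n = 4) to 3128 ± 169.3 (n = 4; 0.65 ± 0.0571 SE, adjusted p = 4.30e-08), and RB1CC1 (FIP200), the scaffold, rose from 3762 ± 258.2 to 5449 ± 369.1 (0.53 ± 0.0562 SE, adjusted p = 3.89e-07). ULK2, the second kinase, had a mean of 789.3 ± 161.9 in complete, 1055 ± 42.6 in cysteine-free and 1155 ± 35.4 in excess medium. Its increase in excess medium (0.57 ± 0.104 SE, adjusted p = 0.000162) passed the test and its log2 fold change in cysteine-free medium (0.44 ± 0.142 SE, adjusted p = 0.0331) did not, with a direct difference of 0.13 (adjusted p = 0.0634). Limma called 0 of the 4 genes in cysteine-free medium, where 2 had an unadjusted p under 0.05 and edgeR and DESeq2 called 0. With 4 genes, 0 calls cannot be told apart from the 15.9% called over all genes tested. Of the PI3-kinase complex, BECN1 rose in excess medium from 3353 ± 107.1 to 3856 ± 104.9 (0.20 ± 0.0418 SE, adjusted p = 0.000545), whereas ATG14 and UVRAG had log2 fold changes of -0.14 and -0.01 and did not pass.

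Of the genes for lipid supply and PI3P reading, WIPI1 and WIPI2 rose in excess medium and ATG2A and ATG9A fell. WIPI1 (ENSG00000070540, chr17:68420948-68457513, - strand) had 429 and 434 normalized counts in cysteine-free, 276, 311, 355 and 277 in complete and 604, 606, 588 and 661 in excess libraries. The media did not overlap, with log2 fold changes of 0.51 ± 0.125 (SE, adjusted p = 0.00815) in cysteine-free and 1.02 ± 0.088 (SE, adjusted p = 3.57e-08) in excess medium, and 28.09% of its exon bases lie in exons of other genes, ARSG among them. The cysteine-free call of WIPI1 was lost without the filter on low values and without complete library 1, 2 or 4. ATG2A, a lipid transfer protein, had 1972 and 1981 in cysteine-free, 2717, 2402, 2666 and 2466 in complete and 2011, 1817, 1988 and 2022 in excess libraries. Both altered media lay below complete medium, with log2 fold changes of -0.37 ± 0.0675 (SE, adjusted p = 0.00117) in cysteine-free and -0.39 ± 0.0538 (SE, adjusted p = 9.83e-06) in excess medium, and the direct difference was -0.01 (95% interval -0.12 to 0.10). WIPI2 had a log2 fold change of 0.23 ± 0.0414 (SE, adjusted p = 0.000122) and ATG9A, a scramblase, of -0.23 ± 0.0443 (SE, adjusted p = 0.000262) in excess medium. ATG9A lost its call under equal totals.

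The 6 genes of the conjugation machinery were the autophagy role that was lowest in cysteine-free medium, where their median log2 fold change was -0.30. There 3 of 6 were called lower, beside 8.51% of all genes tested and 15.4% of protein-coding genes with a mean of 100 or more. Over the alternatives this count ran from 0, without the filter on low values, to 4. The calls of ATG16L1 and ATG3 were lost without that filter, and that of ATG3 also without complete library 1 or 2. ATG16L1, which places the conjugation reaction on the membrane, had 1097 and 1109 normalized counts in cysteine-free, 1579, 1438, 1379 and 1485 in complete and 1255, 1307, 1399.7 and 1284 in excess libraries. It fell in cysteine-free medium, with a log2 fold change of -0.41 ± 0.0741 (SE, adjusted p = 0.00112), and in excess medium the log2 fold change of -0.16 (adjusted p = 0.0208) did not pass. ATG5, the partner of ATG12, had 1013 and 999 in cysteine-free, 1242, 1223, 1167 and 1348 in complete and 1419, 1407, 1401 and 1483 in excess libraries. ATG5 was the 1 member called in opposite directions, -0.31 ± 0.0773 (SE, adjusted p = 0.00971) in cysteine-free and 0.20 ± 0.0552 (SE, adjusted p = 0.00538) in excess medium, with a direct difference of 0.50 ± 0.0561 (SE, adjusted p = 2.98e-08). Its calls against complete medium did not hold without single libraries: the excess call was lost without complete library 1, 2 or 3 or any excess library, and the cysteine-free call without either cysteine-free library or complete library 1, 2 or 4. They also depended on the processing: without the filter on low values both were lost, and the cysteine-free call was lost with a pseudocount of 0.5, under equal totals over all or over nuclear genes and with edgeR. The direct difference of ATG5 kept its call under each alternative. ATG3, the E2-like enzyme, fell in cysteine-free medium (-0.30 ± 0.0678 SE, adjusted p = 0.00459), ATG12 rose in excess medium (0.29 ± 0.0522 SE, adjusted p = 0.000168), and the protease ATG4A (-0.36 in cysteine-free, 0.13 in excess medium) and the E1-like ATG7 (0.03 and 0.11) passed in neither. In the direct comparison, ATG4A, ATG5, ATG12 and ATG16L1 were higher in excess medium by 0.25 to 0.50. That direct call of ATG16L1 was lost without the filter on low values and without cysteine-free library 1.

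Of the 3 lysosomal membrane genes, 1 was called lower in cysteine-free and 2 in excess medium, beside 8.51% and 22.9% of all genes tested. None was called higher, which with 3 genes cannot be told apart from the 7.39% and 23.1% of all genes. LAMP1 (ENSG00000185896, chr13:113297239-113323672, + strand), a heavily glycosylated lining protein with no exon base shared, had 3606 and 4048 normalized counts in cysteine-free, 5041, 4898, 4493 and 5281 in complete and 2783, 2768, 2688 and 2976 in excess libraries. The media stood in 3 separate steps, with log2 fold changes of -0.36 ± 0.0703 (SE, adjusted p = 0.0018) in cysteine-free and -0.81 ± 0.0513 (SE, adjusted p = 7.24e-10) in excess medium, and a direct log2 difference of -0.45 ± 0.0517 (SE, adjusted p = 5.64e-08) between excess and cysteine-free medium. The cysteine-free call of LAMP1 was lost without the filter on low values, without either cysteine-free library and without complete library 2. LAMP2, its partner, had 5249 and 5410.3 in cysteine-free, 5343, 5470.0, 5522 and 5518 in complete and 5276, 5145, 5109.6 and 5145 in excess libraries. Its log2 fold change in excess medium was -0.08 (adjusted p = 0.0705), with a 95% interval from -0.16 to just below 0, and its excess libraries all lay below its complete ones. MCOLN1, a calcium channel of the lysosome, had 787 and 792 in cysteine-free, 721, 739, 732 and 782 in complete and 645, 639, 621 and 654 in excess libraries. Its cysteine-free libraries lay just above and its excess libraries below the complete ones. The log2 fold change in excess medium was -0.22 ± 0.0602 (SE, adjusted p = 0.00559), a call lost without complete library 2 or 4, without any 1 of the excess libraries, with the replicate block and under equal totals over all or over nuclear genes. The direct difference of MCOLN1 from cysteine-free medium, -0.30 ± 0.0682 (SE, adjusted p = 0.000494), kept its call under each alternative.

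Of the 6 hydrolases, GLA, HEXA, CTSD and CTSB fell in excess medium, CTSL rose and NEU1 was not called. GLA (ENSG00000102393, chrX:101393273-101408012, - strand), the alpha-galactosidase that is missing in Fabry disease, had 4605 and 4753 normalized counts in cysteine-free, 8553, 8452, 7826 and 8894 in complete and 5811, 5531, 5912 and 5772 in excess libraries. The complete libraries lay highest, the excess libraries below them and the cysteine-free libraries lowest. GLA had the largest decrease of the 41 genes in cysteine-free medium, to 0.556 times complete medium with a log2 fold change of -0.85 ± 0.0575 (SE, adjusted p = 5.33e-07), and was the 1 cysteine-free call that held under each alternative. In excess medium its log2 fold change was -0.55 ± 0.0428 (SE, adjusted p = 9.78e-09), and the direct difference of excess from cysteine-free medium was 0.30 ± 0.0412 (SE, adjusted p = 9.19e-07). RPL36A, on the other strand, covers 8.99% of the GLA exon bases. HEXA (ENSG00000213614, chr15:72340924-72376420, - strand), the alpha subunit of hexosaminidase A, had 3631 and 4119 in cysteine-free, 3426, 3641, 3213 and 3700.2 in complete and 2611, 2638, 2694 and 2717 in excess libraries. Here the cysteine-free libraries overlapped the complete ones and the excess libraries lay below both, with a log2 fold change of -0.39 ± 0.0486 (SE, adjusted p = 2.94e-06) against complete and -0.54 ± 0.0499 (SE, adjusted p = 1.34e-09) against cysteine-free medium.

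CTSD (ENSG00000117984, chr11:1752752-1764573, - strand), an aspartic protease, had 6495 and 6721 normalized counts in cysteine-free, 6430.3, 6278, 6276 and 6526 in complete and 4701, 4913, 5000.3 and 5667 in excess libraries. The excess libraries lay below all others, with a log2 fold change of -0.33 ± 0.05 (SE, adjusted p = 2.18e-05), and 48.04% of its exon bases lie in exons of other annotated genes. CTSB, a cysteine protease, had 1967 and 1928 in cysteine-free, 2064, 2057, 1894 and 2073 in complete and 1659, 1654, 1744 and 1722 in excess libraries. It fell in excess medium, with a log2 fold change of -0.25 ± 0.0488 (SE, adjusted p = 0.000269), a call lost under equal totals. CTSL, another cysteine protease, went the other way, from a mean of 2824 ± 88.4 (n = 4) to 3208 ± 80 (n = 4; 0.18 ± 0.0427 SE, adjusted p = 0.00141). NEU1, a sialidase, had means of 1633 ± 124.8 in cysteine-free, 2034 ± 195.2 in complete and 2018 ± 122.5 in excess medium. Its log2 fold change of -0.31 (adjusted p = 0.0157) in cysteine-free medium did not pass, while the direct difference did (0.31 ± 0.0596 SE, adjusted p = 0.0001). That direct call of NEU1 was lost without the filter on low values and without cysteine-free library 1.

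Of the 3 V-ATPase subunits, ATP6V0D1 and ATP6V1A fell in excess medium, with log2 fold changes of -0.22 ± 0.0472 (SE, adjusted p = 0.000655) and -0.18 ± 0.0414 (SE, adjusted p = 0.00124), and both calls were lost under equal totals. In cysteine-free medium the log2 fold changes were -0.23 (adjusted p = 0.0165) for ATP6V0D1, -0.08 (adjusted p = 0.335) for ATP6V1A and -0.28 (adjusted p = 0.0219) for ATP6V1H. Limma called 0 of the 3 there, where 2 had an unadjusted p under 0.05, edgeR called 0 and DESeq2 called 1. With 3 genes, 0 calls cannot be told apart from the 15.9% called over all genes tested. The ATP6V1H mean was 1272 ± 101.2 in cysteine-free, 1544 ± 112.3 in complete and 1465 ± 44.8 in excess medium.

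Exons of another gene overlap those of 22 of the 41 members, and the strand setting of the counting is not given in the sources used here. Among the 19 members without such overlap, 8 of 12 autophagy genes were higher and 2 lower in excess medium, with a median log2 fold change of 0.32. Of the 7 lysosome genes without overlap, 3 were lower (42.9%) and 1 higher, with a median of -0.08, which is near the 36.0% lower and the median of -0.04 of the protein-coding genes with a mean of 100 or more. The other 5 lysosome genes, HEXA, CTSD, GLA, MCOLN1 and ATP6V1A, share exon bases and were all called lower.

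Promoters were read because MiT/TFE factors are known to act through the E-box CACGTG. RefSeq promoters, taken from 250 bases before to 50 bases after each annotated start (GRCh38.p14), were given for 34 of the 41 members. RB1CC1, UVRAG, LAMP2, CTSB, HEXA, ATP6V1A and ATP6V1H had no entry. The E-box was found, on both strands since it is its own reverse complement, in 7.43% of all 27305 promoters, in 2 of 27 autophagy promoters (7.41%) and in 5 of 7 lysosome promoters (71.4%). LAMP1 held 6 matches, MCOLN1 and ATG3 held 2, and CTSD, NEU1, ATP6V0D1 and ATG14 held 1. The longer form TCACGTGA, which contains the E-box, was found in 1.04% of all promoters and in LAMP1, MCOLN1, ATP6V0D1 and ATG3. By the excess comparison, 0 of 18 members called higher, 4 of 8 called lower and 3 of 8 not called held an E-box. Of 22 promoters of other lysosomal hydrolases, 3 held one (13.6%).

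The stretches just upstream of LAMP1, MCOLN1 and ATP6V0D1, which hold the E-boxes of 3 members that were lower in excess medium, are shown 5′ to 3′ on the strand of the gene with each E-box in capitals, and that of ATG14, which was not called, stands beside them. They lie at chr13:113297022-113297238 (+ strand) for LAMP1, chr19:7522558-7522623 (+ strand) for MCOLN1, chr16:67481182-67481241 (- strand) for ATP6V0D1 and chr14:55411831-55411876 (- strand) for ATG14, outside the exons annotated in GENCODE 44. The excess calls of MCOLN1 and ATP6V0D1 were lost under equal totals. The lysosome gene NEU1, not called in excess medium (log2 fold change -0.01), also has an E-box outside annotated exons, which is not shown.
LAMP1: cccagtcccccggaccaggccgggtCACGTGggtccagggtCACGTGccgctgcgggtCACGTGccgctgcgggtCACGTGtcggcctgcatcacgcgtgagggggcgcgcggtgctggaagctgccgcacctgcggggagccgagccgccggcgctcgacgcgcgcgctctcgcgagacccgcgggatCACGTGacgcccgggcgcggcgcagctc
MCOLN1: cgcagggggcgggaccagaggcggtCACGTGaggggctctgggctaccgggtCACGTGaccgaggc
ATP6V0D1: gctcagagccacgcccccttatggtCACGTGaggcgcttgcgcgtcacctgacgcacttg
ATG14: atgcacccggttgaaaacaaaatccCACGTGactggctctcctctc
The LAMP1 stretch holds 5 of its 6 matches, which begin at positions -192, -176, -159, -142 and -28 from the annotated start, and the last match, at -1, crosses that start. In MCOLN1 the matches begin at -41 and -14. A pair of other motifs was searched on both strands. TGATGNAAT, a form of the ATF4 element, was found in 0 of 34 member promoters and in 1.02% of all promoters, and TGACNNNGC, the core of the antioxidant element bound by NRF2, in 7 of 34 members (20.6%) and in 13.6% of all promoters. Like the E-box, this core was found in 2 of 27 autophagy and 5 of 7 lysosome promoters, and in 4 of 8 members called lower in excess medium, beside 3 of 18 called higher and 0 of 8 not called. Of the 22 promoters of other lysosomal hydrolases, 8 held it (36.4%). These matches describe letters in a window and were not tested as sites.

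**Figure D4:**
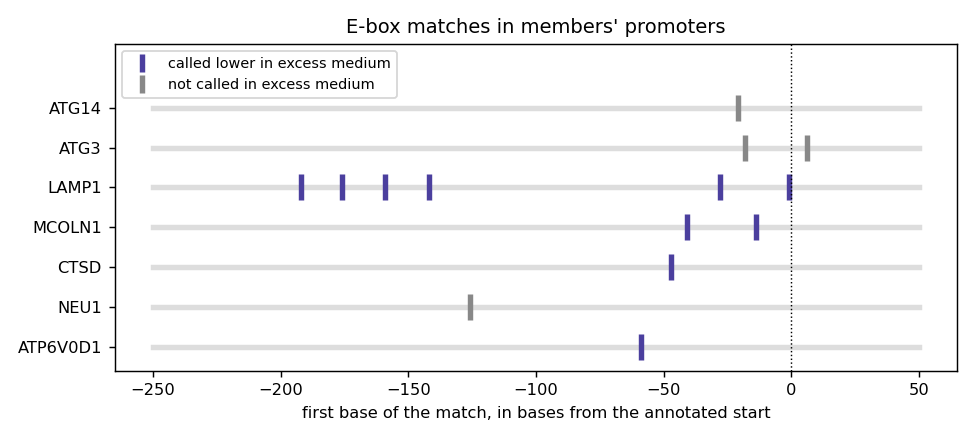
Position of each E-box match in the 7 member promoters that hold one, in bases from the annotated start (dotted line); each grey bar is the promoter window, and the matches are blue where the gene was called lower in excess medium and grey where it was not called. LAMP1 has 6 matches, 4 of them in a cluster upstream, and no gene in the plot was called higher in excess medium.

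Other genes of the pathway were counted from 6 lists with 126 genes, of which 122 were tested. Their counts in excess medium stand beside 23.1% higher and 22.9% lower over all genes tested, and 30.0% and 36.0% over protein-coding genes with a mean of 100 or more. In excess medium, 23 of 36 other lysosomal hydrolases were lower (63.9%) and 3 higher (8.33%), with -0.43 as their median log2 fold change. Against cysteine-free medium, 29 of the 36 were lower in excess medium and 4 higher. In that direct comparison, 23.6% of all genes tested were lower. Of the protein-coding genes with a mean of 100 or more, 67.0% were called there in either direction. Over the alternatives, the number of these hydrolases lower in the direct comparison ran from 20 to 29. GM2A, the activator of ganglioside breakdown, had 1501, 1499, 1459 and 1677 normalized counts in complete and 455, 423, 421 and 400.2 in excess libraries. It fell to 0.277 times complete medium, with a log2 fold change of -1.85 ± 0.065 (SE, adjusted p = 5.20e-13), which is farther than any of the 12 lysosome members. ARSA, which cleaves sulfatide, fell from a mean of 883.8 ± 83.6 (n = 4) to 390 ± 21.1 (n = 4; -1.17 ± 0.0764 SE, adjusted p = 1.04e-09). Of 19 other genes of the lysosomal membrane and of delivery to it, 11 were lower (57.9%) and 4 higher, and of 19 other V-ATPase subunits, 9 were lower (47.4%) and 3 higher. ATP6V1G2 rose, from 170.9 ± 5.71 to 341.7 ± 40 (0.99 ± 0.0997 SE, adjusted p = 2.30e-07). Of its exon bases, 22.86% are shared with other annotated genes, ATP6V1G2-DDX39B on the same strand among them.

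Among 27 other genes of the autophagy machinery, 12 were higher (44.4%) and 5 lower (18.5%) in excess medium, with a median of 0.05. WDR45 (WIPI4), which binds ATG2 proteins, had 1692, 1873, 1739 and 1822 normalized counts in complete and 3819.5, 3877, 3859 and 3961 in excess libraries and rose, with a log2 fold change of 1.12 ± 0.0453 (SE, adjusted p = 2.76e-12). Another annotated gene on the same strand shares 14.39% of the WDR45 exon bases. Among 13 other cargo receptors, 5 were higher (38.5%) and 4 lower (30.8%), shares near those of the protein-coding genes. CCPG1, a receptor for autophagy of the endoplasmic reticulum, had 710.0, 724, 844 and 631 in complete and 1755, 1800.3, 1772 and 1798 in excess libraries and rose, with a log2 fold change of 1.30 ± 0.0719 (SE, adjusted p = 1.40e-10), though 39.98% of its exon bases are shared with neighbouring genes. The 8 tested genes of the MiT/TFE family and its regulators gave 4 higher and 3 lower.

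In cysteine-free medium each of these lists gave fewer calls, as did the whole table, where 7.39% of genes were higher and 8.51% lower and where 26.7% of the protein-coding genes with a mean of 100 or more were called. The other hydrolases gave 8 higher and 5 lower of 36, with a median log2 fold change of 0.11, the V-ATPase subunits 2 higher and 7 lower of 19, the membrane and delivery genes 2 higher and 6 lower, the autophagy machinery 4 and 3, the receptors 2 and 1, and the MiT/TFE regulators 0 and 3. These counts moved with the processing: over the alternatives the hydrolases ranged from 0 to 12 higher and 0 to 7 lower, the V-ATPase subunits from 1 to 8 lower and the membrane and delivery genes from 0 to 8 lower. CTSO, a cysteine protease, rose from 168.1 ± 21.5 (n = 4) to 364.9 ± 70 (n = 2; 1.11 ± 0.158 SE, adjusted p = 0.000214), and GALC, which cleaves galactosylceramide, rose from 120.8 ± 19.6 to 223.8 ± 7.31 (0.90 ± 0.171 SE, adjusted p = 0.00164). ATP6V1G2 rose to 328.1 ± 75.8 (0.92 ± 0.149 SE, adjusted p = 0.000545). CTSK fell from 170.2 ± 18 to 103.2 ± 11.8 (-0.71 ± 0.163 SE, adjusted p = 0.00536), CTSV, also a cysteine protease, from 816.3 ± 64.7 to 536.9 ± 62.2 (-0.60 ± 0.101 SE, adjusted p = 0.000666), and ATP6V0B from 3732 ± 274.1 to 2386 ± 38.7 (-0.64 ± 0.0699 SE, adjusted p = 2.73e-05). The cysteine cathepsins CTSO, CTSK and CTSV thus went different ways in this medium.

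**Figure D5:**
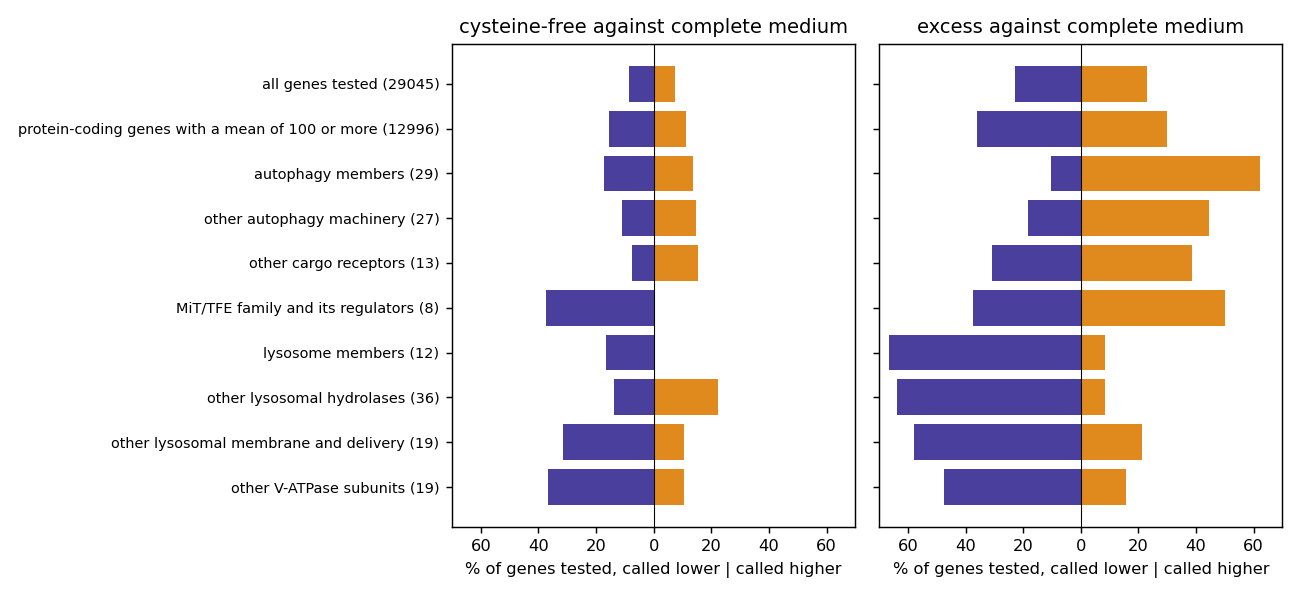
Share of the tested genes of each list that was called lower (left of 0) or higher (right of 0) in cysteine-free (left panel) and excess medium (right panel) against complete medium, in percent, with the number of genes tested in brackets. In excess medium the autophagy members reach 62.1% higher and the lysosome members 66.7% lower, beside 30.0% and 36.0% for protein-coding genes with a mean of 100 or more.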

How the data were processed

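The authors mapped the reads to GRCh38 (STAR 2.7.10b), counted them on Ensembl genes and deposited 1 table of signal values, the read count of each gene divided by its library's DESeq2 size factor. The study's methods name featureCounts, with reads over several genes discarded, while the submitters' processing notes name HTSeq. The Ensembl release and strand setting are not given in the sources used here. Groups follow the medium named in each label. The number of replicates in the study's text differs from that in the labels, and all labelled libraries were used. A check found 100.0% of the values of every library to be a whole number of reads (tolerance 0.1 reads) times 1 step, which gave back the read counts. Gene IDs were matched to symbols with GENCODE 44 (42165 of 78894 had one).

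Values were analysed as log2(value + 1) in R 4.3.3 by limma 3.58.1, using eBayes with a trend after lmFit. Tests were 2-sided, each comparison used its own groups, and p-values had Benjamini-Hochberg adjustment over the 29045 genes kept. Fold changes are on this scale. Single values were also compared by an exact permutation test over libraries, 2-sided. The 41 members, their roles and the 6 lists of other pathway genes, the latter written from general knowledge, were chosen with earlier results of these data known. Values in every library were given for SQSTM1, MAP1LC3B, GABARAPL1, TFEB, TFE3, MITF, LAMP1, LAMP2, CTSD and MCOLN1, and in each comparison for the 5 largest increases and 5 largest decreases among called members whose groups did not overlap and whose higher group reached a mean of 100. Of other pathway genes, the 3 largest each way against complete medium were named, except for 1 that is not reported here. On simulated data 200 of 29045 genes, drawn from those with a mean of 100 or more, were changed by 1 on the log2 scale. Of these, 187 were called in the cysteine-free, 198 in the excess and 199 in the direct comparison, with 4, 2 and 7 unchanged genes. Smaller changes or a larger share of changed genes were not simulated. Alternatives tried were a pseudocount of 0.5 or 10, no filter, a minimum of 50 in 3 libraries, equal totals over all or over nuclear genes, the recovered reads tested by DESeq2 1.42.0 or by edgeR 4.0.16, a single fit of all 3 groups, a replicate block, and leaving out each library in turn. Promoters came from RefSeq (GRCh38.p14).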

Additional observations from a re-analysis of the deposited data

Results flagged for a closer look

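In 6 of 82 groups of 4 libraries (41 members in complete and in excess medium), 1 library stood apart from the other 3 by more than Dixon's 95% critical value for 4 values, where chance gives about 4.1. MAP1LC3B was highest in excess library 4, at 4798 normalized counts against 4476 to 4502 in the others. UVRAG was lowest in complete library 3, at 787.8 against 851.8 to 857. ATG2A was lowest in excess library 2, at 1817 against 1988 to 2022, and NEU1 was lowest in the same library, at 1835 against 2066 to 2092. ATG12 was lowest in excess library 3, at 2032 against 2148 to 2172. CTSB was lowest in complete library 3, at 1894 against 2057 to 2073. The members among these that were called in excess medium, MAP1LC3B, ATG2A, ATG12 and CTSB, had excess and complete libraries that did not overlap.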

How the results depend on the processing

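No member called in a comparison changed direction in any alternative. Of the calls, 1 of 11 in cysteine-free medium (GLA), 23 of 30 in excess medium and 19 of 30 between the altered media held under each alternative, and 5, 5 and 2 further members were called in at least 1. Without the filter on low values, limma called 738 genes of the whole table in cysteine-free medium in place of 4618, 0 autophagy members in place of 9 (16 had an unadjusted p under 0.05, and with the filter edgeR called 8 and DESeq2 10), 1 lysosome member in place of 2, and 8864 genes in place of 13954 between the altered media; the cause was not tested. The lysosome members called in cysteine-free medium numbered 4 with DESeq2 and 5 with all 3 groups in one fit. Equal totals left 5 of the 9 lysosome calls in excess medium: MCOLN1, CTSB, ATP6V0D1 and ATP6V1A were lost, as was ATG9A among the autophagy members. In that alternative 61.8% of all calls in excess medium were higher, and 59.99% in place of 50.79% between the altered media. Equal totals over nuclear genes left 8 of the 9 lysosome calls in excess medium, and only that of MCOLN1 was lost.

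Leaving out 1 library gave 978 to 6300 genes of the whole table, 1 to 11 autophagy and 1 to 5 lysosome members in cysteine-free medium. The lowest came without either cysteine-free library, with 1198 and 978 genes. Without complete library 1 there were 2968 genes and 5 autophagy members, without complete library 2 there were 2795 genes, 4 autophagy members and 1 lysosome member, and without complete library 3 there were 5 lysosome members. A comparison with 1 cysteine-free library assumes that it varies as the complete ones do. In excess medium the ranges were 11958 to 13691 genes, 20 to 22 autophagy and 8 to 9 lysosome members, and between the altered media 11593 to 13334, 16 to 20 and 6 to 9.

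No shared deviation was detected between libraries with the same replicate number, with correlations across genes between -0.028 and 0.039. This check cannot establish whether the numbers pair the samples, since most single-gene deviations may be noise. With the replicate block, 6532 genes, 11 autophagy members and 5 lysosome members were called in cysteine-free medium, 13392, 21 and 8 in excess medium, and 12393, 19 and 8 between the altered media. The block ended the call of MCOLN1 in excess medium and those of ATP6V1H, NBR1 and WIPI2 between the altered media, and it ended no other member's call. Reads numbered 148 or more for each member in each library, and depth limits the lowest members, TFEB and MITF, the most.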
